A study of Mus musculus with 17 samples.

Results

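Collagens, laminins and the proteins that bind them make up most of the extracellular matrix that mammary epithelial cells sit on or secrete. The genes described here were all those whose symbol in the platform annotation named a collagen chain (Col, a number, a, a number) or a laminin chain (Lama, Lamb or Lamc with 1 digit), together with Nid1, Nid2, Hspg2 and Agrn. This rule used names and no measured value, though it was chosen with earlier results of these data known. It gave 58 of the 19938 genes tested: 44 collagen chains, 10 laminin chains, the 2 nidogens and the 2 heparan sulfate proteoglycans perlecan (Hspg2) and agrin (Agrn). They were read by 60 probe sets, since Col6a5 and Col6a6 have 2 each, and the probe set with the highest mean was used for a gene.

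The cells were 3134 mouse mammary epithelial cells that all carry a tetracycline transactivator, a protein whose expression tetracycline in the medium keeps off. Stocks were held in 5 µg/ml tetracycline, and RNA was taken after 48 h with the drug (repressed) or without it (induced). In the control line, called 3134Tet, induction switches on the transactivator alone. In each of the 3 other lines it also switches on a Flag-tagged dominant-negative variant of a chromatin remodeler ATPase, Brg1, Chd4 or Snf2h, written here as dnBrg1, dnChd4 and dnSnf2h. There were 17 Affymetrix Mouse Gene 1.0 ST arrays: 2 repressed and 3 induced of the control line, and 2 repressed and 2 induced of each dominant-negative line. The labels describe each variant as stably integrated and do not say whether a line is 1 clone or how many were made, so a difference between lines cannot be told apart from a difference between integrants. Nor do they say that replicates were separate cultures, so every p-value rests on a scatter between arrays that may be technical only.

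Triple-helical collagens fall into classes with different jobs. Fibrillar chains (types I, III and V) assemble into the cables of connective tissue, type IV forms the network of the basement membrane, and type VI forms beaded filaments at the border between the 2. Laminins are trimers of an alpha, a beta and a gamma chain that cells bind through integrins and dystroglycan, and nidogen and perlecan tie the laminin and collagen IV networks together. In the mammary gland the basement membrane lies under the myoepithelial cells and is required for the secretory state of the epithelium.

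All values are deposited log2 signals, and a change is induced minus repressed on that log2 scale, with its standard error (SE). A gene is said to have risen or fallen where limma, fitted to all genes, gave an adjusted p under 0.05 by Benjamini-Hochberg over the 19938 genes. The inductions of the 3 dominant-negative lines were fitted on their own 12 arrays, because 3 of the 5 control arrays were each most like an array of the other label. The probe sets of the remodelers themselves gave a mixed check of the labels. Chd4 rose by 1.82 in the dnChd4 line (SE 0.114), while Smarca4, the gene of Brg1, changed by 0.12 in the dnBrg1 line and Smarca5, the gene of Snf2h, by -0.24 in the dnSnf2h line, with adjusted p of 0.615 and 0.209. What part of each messenger the probe sets read, and whether that part is in the integrated variant, is not given in the sources used here. Of 12 epithelial markers, 4 (Krt19, Epcam, Ocln and Esrp1) had a mean under 4.77, the level below which the dimmest 30% of genes lie, and 8, Krt8, Krt18 and Cdh1 among them, were above it. Vimentin (Vim) and N-cadherin (Cdh2), which are usually mesenchymal, averaged 12.71 and 9.51. Krt18 and Cdh1 averaged 5.68 and 5.19, near the array medians of 5.48 to 5.63, and without detection values a mean above 4.77 does not show that a transcript is present. Of the 58 matrix genes, 53 had a mean above 4.77 and 5 (Col12a1, Nid2, Lama2, Lama3 and Lama4) were under it.

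On induction a minority of the matrix genes changed in each dominant-negative line, and in both directions. In the dnBrg1 line 4 rose and 4 fell, which is 13.8% of the 58, where 14.2% of all genes tested were called (8.01% up and 6.22% down). In the dnChd4 line 9 rose and 2 fell, or 19% against 18% of all genes (11.2% up and 6.82% down). In the dnSnf2h line 3 rose and 3 fell, or 10.3% against 17.5% of all genes (9.2% up and 8.34% down). The shares in the dnBrg1 and dnChd4 lines lay near those of genes at large, so the counts alone set nothing apart. The median change of the 58 was -0.04, -0.06 and 0.04 in the 3 lines, beside -0.03, -0.03 and -0.01 for all genes. In all, 15 matrix genes were called in at least 1 line, which is 25.9% beside 27% of all genes, and none was called in opposite directions in different lines. The other 43 were called in none, and their changes ran from -0.32 (Col28a1 in the dnBrg1 line) to 0.38 (Col6a6 in the dnSnf2h line). No gene of the 5 under the 4.77 level was called.

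**Figure D1:**
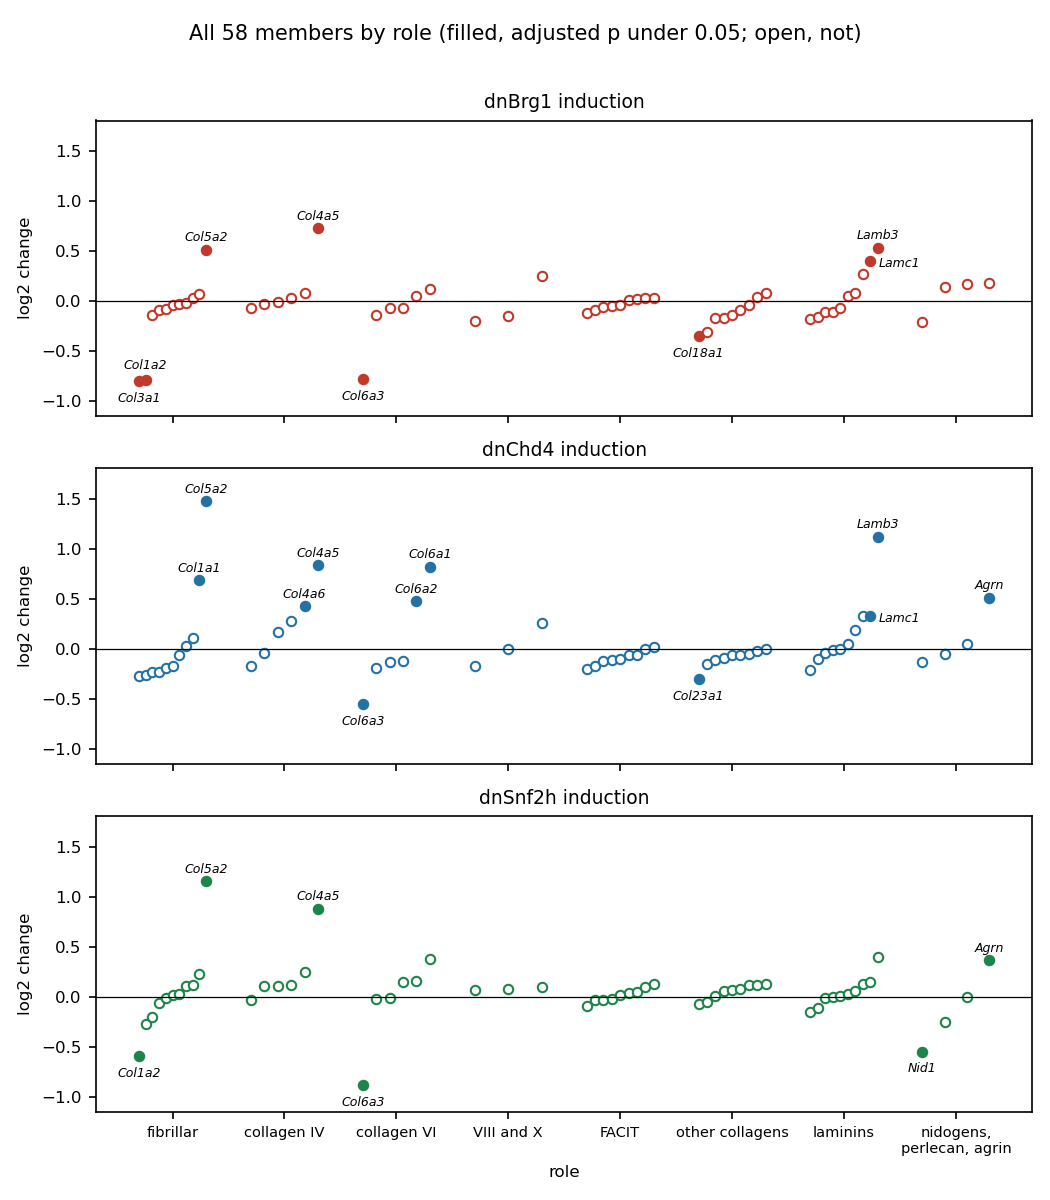
Change on induction (log2, induced minus repressed) of all 58 matrix genes in each dominant-negative line, sorted within classes, with genes past adjusted p 0.05 filled and named. Each class holds mostly open points near 0, and the filled points lie between -0.88 (Col6a3, dnSnf2h) and 1.47 (Col5a2, dnChd4).

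Called the same way in every dominant-negative line were 3 matrix genes. Col5a2, the alpha 2 chain of type V collagen that nucleates collagen fibrils, and Col4a5, a basement membrane collagen IV chain, rose in all 3, as did 4.62% of all genes. Col6a3, the long chain of type VI collagen, fell in all 3, as did 3.06% of all genes. A further 3 rose in 2 lines: Lamb3 and Lamc1 in the dnBrg1 and dnChd4 lines, and Agrn in the dnChd4 and dnSnf2h lines. Col1a2, a chain of type I collagen, fell in the dnBrg1 and dnSnf2h lines. The remaining called genes were called in 1 line. Col1a1, Col4a6, Col6a1 and Col6a2 rose in the dnChd4 line and Col23a1 fell there. Col3a1 and Col18a1 fell in the dnBrg1 line, and Nid1 fell in the dnSnf2h line. The shares of all genes called in only 2 lines or only 1 were not counted. The counts for 2 lines and for 1 line therefore have no comparison with genes at large.

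**Figure D2:**
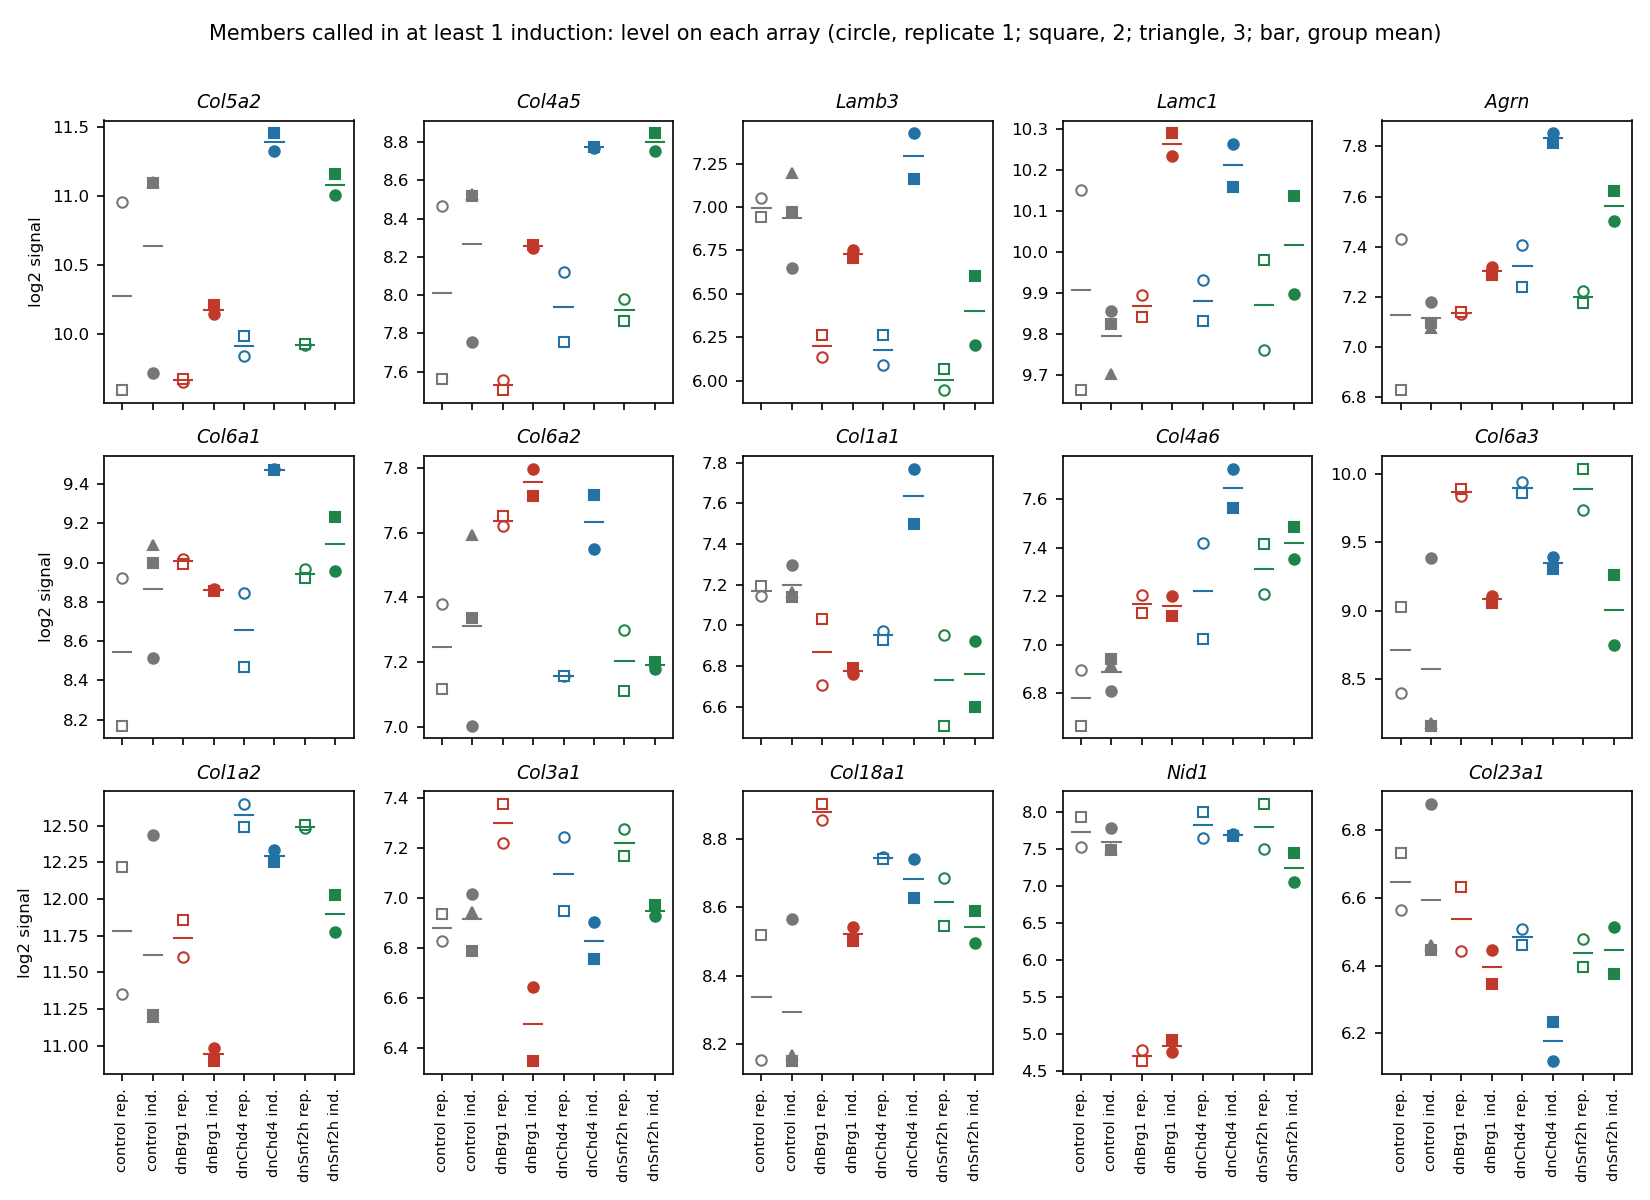
Log2 signal of the 15 matrix genes called in at least 1 induction, on each of the 17 arrays, with open symbols for repressed and filled for induced and a bar at the group mean. Control arrays of 1 label spread widely, as for Col5a2 at 10.95 and 9.60 in the repressed group, while the arrays of a dominant-negative group mostly lie close together.

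Among the 11 fibrillar chains the largest rise and 2 of the falls were found, and neighbouring genes parted. Col5a2 (probe set 10354309) read 9.66 and 9.68 repressed and 10.15 and 10.21 induced in the dnBrg1 line. It read 9.85 and 9.99 repressed and 11.33 and 11.45 induced in the dnChd4 line, and 9.92 and 9.93 against 11.01 and 11.16 in the dnSnf2h line. Every induced array lay above every repressed array of its line, by a wide margin in the dnChd4 and dnSnf2h lines. With 2 arrays a side such a split alone says little. It was found for 23.6%, 27.2% and 22.3% of all genes in the dnBrg1, dnChd4 and dnSnf2h lines. The reverse split was found for 29.9%, 32.9% and 24.1%. The Col5a2 changes were 0.51 (SE 0.096, adjusted p 0.00227), 1.47 (SE 0.096, adjusted p 2.26e-07) and 1.16 (SE 0.096, adjusted p 2.59e-06). They are 1.42-fold, 2.78-fold and 2.23-fold rises. Col3a1 (probe set 10346015), the type III collagen chain and the gene next to Col5a2 on chromosome 1 in the GRCm38.p6 gene table, went the other way. Its signal in the dnBrg1 line was 7.22 and 7.38 repressed and 6.65 and 6.35 induced, a fall of 0.80 on the log2 scale (SE 0.123, adjusted p 0.000508). In the dnChd4 and dnSnf2h lines it changed by -0.27 in each, with induced arrays under repressed ones but adjusted p of 0.175 and 0.159.

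The 2 chains of type I collagen, which form 1 trimer of 2 alpha 1 chains and 1 alpha 2 chain, were called in different lines. No test compared the 2 genes. Col1a2 (probe set 10536220) read 11.60 and 11.86 repressed and 10.98 and 10.90 induced in the dnBrg1 line, and 12.48 and 12.51 against 11.77 and 12.03 in the dnSnf2h line. It fell by 0.79 on the log2 scale in the first (SE 0.113, adjusted p 0.000297) and by 0.59 in the second (SE 0.113, adjusted p 0.00185). In the dnChd4 line it read 12.65 and 12.49 repressed and 12.34 and 12.25 induced, a change of -0.28 with an adjusted p of 0.118. Col1a1 rose in the dnChd4 line, from 6.97 and 6.93 to 7.77 and 7.50, a change of 0.68 (SE 0.155, adjusted p 0.00566). It read 6.70 and 7.03 against 6.76 and 6.79 in the dnBrg1 line, a change of -0.09 (adjusted p 0.798), and 6.95 and 6.51 against 6.92 and 6.60 in the dnSnf2h line, a change of 0.03 (adjusted p 0.936). The Col1a1 call was lost when the second repressed or the first induced dnChd4 array was left out (adjusted p up to 0.0902). The 7 other fibrillar chains were not called in any induction and changed by between -0.23 and 0.23 in the 3 lines.

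The windows of 250 bases before to 50 bases after the start of Col1a2, Col3a1 and Col6a3 are shown because these are the 3 genes that fell furthest in the dnBrg1 line. They come from the RefSeq promoter table of GRCm38.p6, run 5′ to 3′ on the gene's strand, and have in capitals every match, on either strand, to the TATA box letters TATAAA, the CCAAT box letters CCAAT and the GC box letters GGGCGG. A match on the other strand appears as TTTATA for the first motif, as ATTGG for the second and as CCGCCC for the third. The table held windows for 43 of the 58 genes, 48 windows in all.
Col1a2, chr6:4505368-4505667, plus strand: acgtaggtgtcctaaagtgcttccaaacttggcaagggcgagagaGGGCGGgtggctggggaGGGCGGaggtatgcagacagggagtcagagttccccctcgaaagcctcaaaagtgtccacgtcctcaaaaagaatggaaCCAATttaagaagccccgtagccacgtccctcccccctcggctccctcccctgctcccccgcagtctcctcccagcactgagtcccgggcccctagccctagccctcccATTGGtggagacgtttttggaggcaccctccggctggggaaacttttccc
Col3a1, chr1:45311288-45311587, plus strand: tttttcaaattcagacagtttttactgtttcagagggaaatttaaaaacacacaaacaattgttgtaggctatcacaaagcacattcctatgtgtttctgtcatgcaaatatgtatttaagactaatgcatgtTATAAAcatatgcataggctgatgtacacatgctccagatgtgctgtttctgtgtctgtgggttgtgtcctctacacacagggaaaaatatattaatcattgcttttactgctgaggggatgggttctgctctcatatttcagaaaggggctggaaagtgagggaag
Col6a3, chr1:90843922-90844221, minus strand: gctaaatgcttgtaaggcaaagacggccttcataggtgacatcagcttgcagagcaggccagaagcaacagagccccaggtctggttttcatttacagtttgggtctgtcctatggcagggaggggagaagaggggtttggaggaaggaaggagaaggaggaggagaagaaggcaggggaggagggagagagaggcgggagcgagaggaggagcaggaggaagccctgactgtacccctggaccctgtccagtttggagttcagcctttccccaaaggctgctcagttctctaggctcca
The 3 windows have little in common in these letters. That of Col1a2 holds 2 CCAAT and 2 GGGCGG matches, that of Col3a1 holds 1 TATAAA match, and that of Col6a3 holds none of them. Among all 32851 windows of the table, 13.6% hold TATAAA, 37.4% hold CCAAT and 35.7% hold GGGCGG. Among the 48 windows of matrix genes these were in 5, 15 and 30. The GC content of the 3 windows is 61%, 37.7% and 56.3%, beside a median of 52.7% over all windows. Over the 48 windows of matrix genes the median is 60%. No matches overlap each other, and a match is a run of letters, not a site at which a factor was shown to bind.

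Type IV collagen is built from 6 genes that lie in 3 head-to-head pairs, and the pairs behaved differently. Col4a5 (probe set 10602105) rose in every dominant-negative line. It read 7.56 and 7.50 repressed and 8.25 and 8.26 induced in the dnBrg1 line, a change of 0.72 (SE 0.112, adjusted p 0.000542). It read 8.12 and 7.75 against 8.77 and 8.77 in the dnChd4 line, a change of 0.83 (adjusted p 0.000113), and 7.98 and 7.86 against 8.75 and 8.85 in the dnSnf2h line, a change of 0.88 (adjusted p 9.08e-05). The 3 rises are 1.65-fold, 1.78-fold and 1.84-fold, and no induced array overlapped the repressed ones of its line. The shares of all genes with such a split are given with Col5a2 above. Its partner Col4a6, on the opposite strand of the X chromosome, rose in the dnChd4 line, from 7.42 and 7.02 to 7.73 and 7.56. That change of 0.42 (SE 0.126, adjusted p 0.0282) was lost without the second repressed or either induced dnChd4 array (adjusted p up to 0.387) and in a fit of the dnChd4 arrays alone (adjusted p 0.0896). In the dnBrg1 and dnSnf2h lines Col4a6 changed by -0.01 and 0.11, with adjusted p of 0.981 and 0.65.

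Col4a1 and Col4a2, the chains of the collagen IV trimer found in nearly every basement membrane, were not called in any induction. Col4a1 changed by 0.02, 0.27 and 0.11 in the dnBrg1, dnChd4 and dnSnf2h lines, and Col4a2 by 0.08, 0.16 and 0.24. In the dnChd4 line Col4a1 read 8.36 and 8.35 repressed and 8.63 and 8.63 induced, and the adjusted p was 0.0911. Col4a3 and Col4a4, the third pair, changed by between -0.18 and 0.11.

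The windows of the Col4a5 and Col4a6 pair and of the Col4a1 and Col4a2 pair are given to show how close the paired starts lie. They follow the same conventions as above.
Col4a5, chrX:141475169-141475468, plus strand: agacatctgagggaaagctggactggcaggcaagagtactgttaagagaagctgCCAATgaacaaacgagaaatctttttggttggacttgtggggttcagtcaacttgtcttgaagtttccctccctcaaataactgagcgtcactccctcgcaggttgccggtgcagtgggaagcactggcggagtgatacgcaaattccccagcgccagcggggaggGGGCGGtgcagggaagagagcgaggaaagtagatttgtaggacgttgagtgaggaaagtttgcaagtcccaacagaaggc
Col4a6, chrX:141474027-141474326, minus strand: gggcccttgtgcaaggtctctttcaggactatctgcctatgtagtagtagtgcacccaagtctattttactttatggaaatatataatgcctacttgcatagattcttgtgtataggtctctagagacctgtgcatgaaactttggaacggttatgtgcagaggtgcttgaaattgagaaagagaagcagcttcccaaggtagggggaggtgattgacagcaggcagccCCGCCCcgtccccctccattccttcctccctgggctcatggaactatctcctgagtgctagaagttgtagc
Col4a1, chr8:11312777-11313076, minus strand: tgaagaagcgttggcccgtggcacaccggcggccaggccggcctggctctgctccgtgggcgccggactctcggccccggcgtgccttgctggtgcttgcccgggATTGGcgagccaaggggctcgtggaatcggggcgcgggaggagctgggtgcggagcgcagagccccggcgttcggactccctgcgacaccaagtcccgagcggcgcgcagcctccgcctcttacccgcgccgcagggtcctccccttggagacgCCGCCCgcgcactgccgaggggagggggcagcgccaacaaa
Col4a2, chr8:11312555-11312854, plus strand: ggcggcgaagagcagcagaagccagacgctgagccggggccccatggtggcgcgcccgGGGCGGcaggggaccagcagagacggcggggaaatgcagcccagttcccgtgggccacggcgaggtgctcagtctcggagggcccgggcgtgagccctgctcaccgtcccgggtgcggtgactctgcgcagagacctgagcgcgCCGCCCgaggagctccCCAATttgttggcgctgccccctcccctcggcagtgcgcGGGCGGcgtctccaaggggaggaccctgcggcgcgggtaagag
The Col4a1 and Col4a2 windows overlap by 78 bases, so part of 1 is the reverse complement of part of the other, while the Col4a5 and Col4a6 windows are 842 bases apart. The Col4a5 window holds 1 CCAAT and 1 GGGCGG match and the Col4a6 window 1 GGGCGG match. The Col4a1 window holds 1 CCAAT and 1 GGGCGG match, and the Col4a2 window 1 CCAAT and 3 GGGCGG matches. None of the 4 holds TATAAA.

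The chains of type VI collagen also split. Col6a3 (probe set 10356520) fell in every dominant-negative line. It read 9.84 and 9.89 repressed and 9.11 and 9.06 induced in the dnBrg1 line, 9.94 and 9.86 against 9.39 and 9.30 in the dnChd4 line, and 9.73 and 10.04 against 8.74 and 9.26 in the dnSnf2h line. The repressed levels were alike in the 3 lines, and each induced array lay under all of them. It fell by 0.78 (SE 0.141, adjusted p 0.00168), 0.55 (SE 0.141, adjusted p 0.0123) and 0.88 (SE 0.141, adjusted p 0.000499) on the log2 scale. In the dnChd4 line the call did not survive the loss of any 1 of the 4 dnChd4 arrays (adjusted p up to 0.0895).

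Col6a1 and Col6a2, adjacent genes on chromosome 10 whose chains assemble with the product of Col6a3, rose in the dnChd4 line. Col6a1 went from 8.84 and 8.47 to 9.48 and 9.47 there, a change of 0.82 (SE 0.121, adjusted p 0.000247). Col6a2 went from 7.16 and 7.16 to 7.55 and 7.72, a change of 0.48 (SE 0.0976, adjusted p 0.00288), which was lost without the second induced array (adjusted p 0.0504). In the dnChd4 line the chains of type VI collagen thus moved in opposite directions, 2 up and 1 down. In the dnBrg1 line Col6a1 changed by -0.15 and Col6a2 by 0.12, and in the dnSnf2h line they changed by 0.15 and -0.01, none past the threshold. Col6a4, Col6a5 and Col6a6, neighbours on chromosome 9, were not called and changed by between -0.19 and 0.38.

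Of the remaining collagens, 2 were called. Col18a1, whose product carries heparan sulfate in basement membranes and releases endostatin, read 8.85 and 8.90 repressed and 8.54 and 8.50 induced in the dnBrg1 line, a fall of 0.36 on the log2 scale (SE 0.0927, adjusted p 0.0173). Leaving out any 1 of the 4 dnBrg1 arrays ended that call (adjusted p up to 0.136), as did centring the arrays on their medians. Col23a1, a transmembrane collagen, read 6.51 and 6.46 repressed and 6.12 and 6.23 induced in the dnChd4 line, a fall of 0.31 (SE 0.1, adjusted p 0.045) that was lost without any 1 dnChd4 array or either induced dnBrg1 array (adjusted p up to 0.308). Trended and robust eBayes, quantile normalization and median centring ended it too (adjusted p 0.0681, 0.0511 and 0.0843). All 9 fibril-associated (FACIT) chains, the single type VII chain of anchoring fibrils, the 3 short-chain genes of types VIII and X and the other transmembrane chains went without a call in the 3 inductions. The FACIT chains changed by between -0.20 and 0.12.

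**Figure D3:**
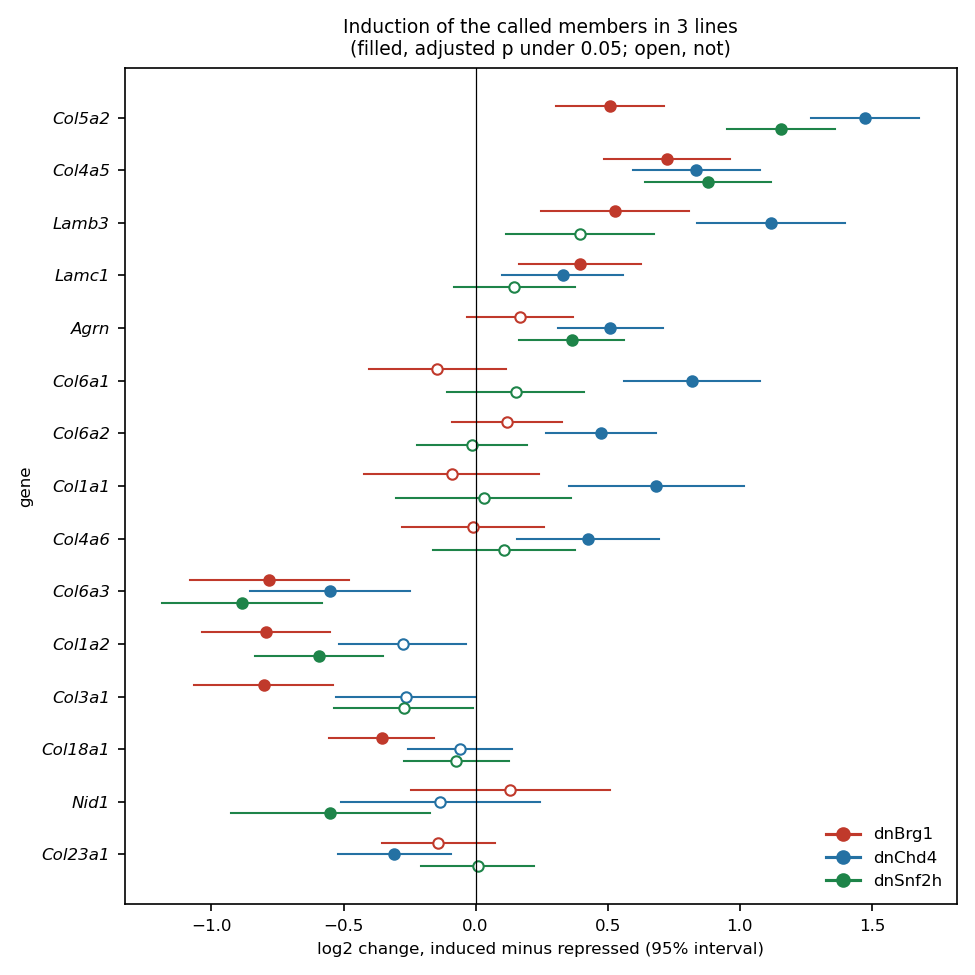
Change on induction (log2) with its 95% interval for the 15 matrix genes called in at least 1 dominant-negative line, filled where adjusted p is under 0.05. For Col4a5 the 3 intervals overlap, from 0.72 to 0.88 in their centres, whereas for Col6a1 the dnChd4 value of 0.82 stands apart from -0.15 in the dnBrg1 line.

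Laminin chains that were called rose, and none of the 5 alpha chains was called. Of these alpha chains, Lama2, Lama3 and Lama4 had means under the 4.77 level. Lamb3 (probe set 10352838), the beta chain of laminin-332, the laminin of hemidesmosomes, read 6.09 and 6.26 repressed and 7.42 and 7.16 induced in the dnChd4 line. That is a change of 1.12 (SE 0.131, adjusted p 3.53e-05), a 2.17-fold rise. In the dnBrg1 line it read 6.14 and 6.26 against 6.75 and 6.70, a rise of 0.53 (SE 0.131, adjusted p 0.0129), lost without the first repressed or either induced array (adjusted p up to 0.0971). In the dnSnf2h line it read 5.94 and 6.07 against 6.20 and 6.60, a change of 0.40 (SE 0.131) with an adjusted p of 0.05 that just missed the threshold. The alpha 3 partner Lama3 was among the genes under the 4.77 level and was not called. The gamma 2 chain of the same trimer is not among the 58 genes and was not analysed here.

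Lamc1, the gamma chain common to most laminins, rose by 0.39 in the dnBrg1 line (SE 0.108, adjusted p 0.0224), from 9.89 and 9.84 to 10.23 and 10.29. It rose by 0.33 in the dnChd4 line (SE 0.108, adjusted p 0.0465), from 9.93 and 9.83 to 10.26 and 10.16, and read 9.76 and 9.98 against 9.90 and 10.14 in the dnSnf2h line, where the groups overlap. Both calls were lost without any 1 array of the line concerned (adjusted p up to 0.158 and 0.291), and that of the dnChd4 line also without any 1 dnBrg1 array. Lamb1 and Lamb2, the alternative beta chains, were not called in single lines. Lamb1 changed by -0.07, 0.18 and -0.11 in the dnBrg1, dnChd4 and dnSnf2h lines and Lamb2 by 0.26, 0.32 and 0.06. Lama5, the alpha chain of laminin-511 and the most widely used one in adult epithelia, changed by -0.11, 0.05 and 0.03.

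Of the linkers and proteoglycans, agrin rose. Agrn, a heparan sulfate proteoglycan that binds laminin and dystroglycan, read 7.41 and 7.24 repressed and 7.85 and 7.81 induced in the dnChd4 line, a change of 0.51 (SE 0.0932, adjusted p 0.00126). In the dnSnf2h line it read 7.22 and 7.18 against 7.50 and 7.62, a change of 0.36 (SE 0.0932, adjusted p 0.0129) that was lost without the second repressed or second induced dnSnf2h array (adjusted p up to 0.0916) and in a fit of the dnSnf2h arrays alone (adjusted p 0.124). In the dnBrg1 line it read 7.13 and 7.14 against 7.32 and 7.29, with an adjusted p of 0.299. Hspg2, the gene of perlecan, changed by -0.22, 0.04 and -0.26 in the dnBrg1, dnChd4 and dnSnf2h lines, none past the threshold. Nid2 lay at or under 4.55 on all dominant-negative arrays and changed by between -0.05 and 0.18. Nid1 fell in the dnSnf2h line, from 7.49 and 8.10 to 7.05 and 7.45, a change of -0.55 (SE 0.176). Its adjusted p of 0.0438 passed 0.05 without the second repressed or first induced dnSnf2h array, either induced dnChd4 array or any dnBrg1 array (up to 0.403). Median centring and a fit of the dnSnf2h arrays alone also ended the call (adjusted p 0.0624 and 0.188).

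Averaged over the 3 dominant-negative lines, 13 of the 58 genes changed, 9 up and 4 down, or 22.4% beside 30.5% of all genes (16.8% up and 13.6% down). The rises were led by Col5a2 at 1.05 (SE 0.0554, adjusted p 6.54e-09), Col4a5 at 0.81 (adjusted p 2.19e-07) and Lamb3 at 0.68 (adjusted p 5.23e-06), followed by Agrn (0.35), Lamc1 (0.29) and Col6a1 (0.27). The 3 smaller ones, Lamb2 (0.21), Col6a2 (0.19) and Col8a1 (0.19), had adjusted p between 0.0155 and 0.0279. The falls were Col6a3 at -0.74 (adjusted p 4.96e-06), Col1a2 at -0.55 (adjusted p 9.5e-06), Col3a1 at -0.45 (adjusted p 0.000156) and Col18a1 at -0.16 (adjusted p 0.031). Lamb2 and Col8a1, the alpha 1 chain of type VIII collagen, were called in the average and in no single line. Each of these 2 calls, and that of Col18a1, was lost on leaving out 1 of several arrays (adjusted p up to 0.0974, 0.0817 and 0.1), and that of Col18a1 on median centring. The averaged Col6a2 call was lost without the first induced dnBrg1 or the second induced dnChd4 array (adjusted p up to 0.0629) and on quantile normalization (adjusted p 0.0692).

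Where the 3 inductions were set against each other, few matrix genes differed. Col5a2 rose less in the dnBrg1 line than in the dnChd4 line, with a difference between the inductions of -0.96 (SE 0.136, adjusted p 0.0015), and Col6a1 differed by -0.96 as well (SE 0.171, adjusted p 0.00958). These 2 genes are 3.45% of the 58, where 1.27% of all genes differed. The Col6a1 difference was lost without the first repressed or either induced dnBrg1 array, the second repressed or the first induced dnChd4 array (adjusted p up to 0.0626). Col5a2 also rose less in the dnBrg1 than in the dnSnf2h line, by a difference of -0.65 (SE 0.136, adjusted p 0.0461), in a comparison that called 0.632% of all genes. Of the 12 arrays, only leaving out the first repressed dnSnf2h array kept that last call (adjusted p up to 0.248 without the others), and it was lost on median centring and in a fit of these lines alone (adjusted p 0.132 and 0.116). No matrix gene differed between the dnChd4 and dnSnf2h inductions, which called 0.13% of all genes by limma, and 6 of the 58 had an unadjusted p under 0.05 there, beside 7.43% of all genes. The calls in 1 line alone are therefore not shown to differ between lines, Col6a1 aside. For Col1a1 the dnBrg1 minus dnChd4 difference was -0.77 with a 95% interval from -1.24 to -0.31 and an adjusted p of 0.128. For Lamb3 it was -0.59, from -0.99 to -0.20, with an adjusted p of 0.197. For Col3a1 it was -0.54, from -0.91 to -0.16, with an adjusted p of 0.223.

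The lines differed in matrix genes before any induction, and the largest difference was in nidogen 1. Nid1 (probe set 10403584) read 4.78 and 4.64 on the repressed and 4.77 and 4.92 on the induced arrays of the dnBrg1 line. On the other 13 arrays, control arrays included, it lay between 7.05 and 8.10, so the groups do not come near each other. The repressed dnBrg1 line minus the repressed dnChd4 line gave a difference in log2 signal of -3.11 (SE 0.176, adjusted p 5.61e-08). Against the repressed dnSnf2h line it was -3.09 (SE 0.176, adjusted p 6.25e-08). In the dnBrg1 line Nid1 thus lay near the 4.77 level in both states. With no detection values used, a signal this low is not shown to be above background, so these differences are of signal, no fold is given, and what the dnBrg1 induction can show of Nid1 is limited. Among endothelial markers Cdh5 had the same distribution, at 3.86 to 4.47 in the dnBrg1 line and 7.70 to 8.33 on the other arrays, while Pecam1, Tek and Emcn had means under the 4.77 level. The other 2 endothelial markers of the 6 showed no such drop: Vwf read 5.82 and 5.82 in the repressed dnBrg1 line against 5.64 to 5.89 in the other repressed dominant-negative lines, and Kdr 4.99 and 4.84 against 4.52 to 5.03. The part of other cell types in the Nid1 difference was not tested.

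There were 7 matrix genes that differed between the repressed dnBrg1 and dnChd4 lines (12.1% beside 14.4% of all genes) and 9 between the repressed dnBrg1 and dnSnf2h lines (15.5% beside 14.3%). Both comparisons share the dnBrg1 arrays. Col1a2 was lower in the repressed dnBrg1 line, by differences of -0.84 (SE 0.113, adjusted p 0.00016) and -0.76 (SE 0.113, adjusted p 0.000392), as the array values given above show. Col8a1 read 9.07 and 9.07 there against 10.02 and 10.02 in the dnChd4 and 9.82 and 9.78 in the dnSnf2h line, differences of -0.95 (adjusted p 2.96e-05) and -0.73 (adjusted p 0.00031). Lama5 read 8.23 and 8.15 against 8.81 and 8.67, and 8.68 and 8.80, differences of -0.55 and -0.55 (adjusted p 0.00231 and 0.00226). Lamb2 was lower than in the dnSnf2h line, with a difference of -0.44, a call lost without either repressed dnBrg1 or the second repressed dnSnf2h array (adjusted p up to 0.132).

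Higher in the repressed dnBrg1 line were Col4a1, Col6a2 and, against the dnSnf2h line alone, Col5a3. Col4a1 read 8.91 and 9.07 there, against 8.36 and 8.35 in the dnChd4 and 8.42 and 8.48 in the dnSnf2h line, differences of 0.64 (SE 0.104, adjusted p 0.000745) and 0.54 (SE 0.104, adjusted p 0.00274). Its head-to-head partner Col4a2 read 8.82 and 9.05 against 8.62 and 8.67, and 8.62 and 8.71, differences of 0.29 and 0.28 with adjusted p of 0.0975 and 0.12. Col6a2 was higher by 0.48 (adjusted p 0.00368) and 0.43 (adjusted p 0.00775), the second lost without the second repressed dnSnf2h array (adjusted p 0.0546). Col5a3 was higher than in the dnSnf2h line by 0.42, a call that quantile normalization, median centring and a fit of only these lines each ended. Col4a5, in contrast to Col4a1, was lower, with differences of -0.41 and -0.39. The Col5a3 and Col4a5 calls were lost without either repressed dnBrg1 array, without the second (Col5a3) or first (Col4a5) repressed dnSnf2h array and, for Col4a5 against the dnChd4 line, without the first repressed dnChd4 array (adjusted p up to 0.306). The repressed dnChd4 and dnSnf2h lines did not differ in any matrix gene by limma (0.015% of all genes did), and 2 of the 58 had an unadjusted p under 0.05, beside 7.92% of all genes.

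**Figure D4:**
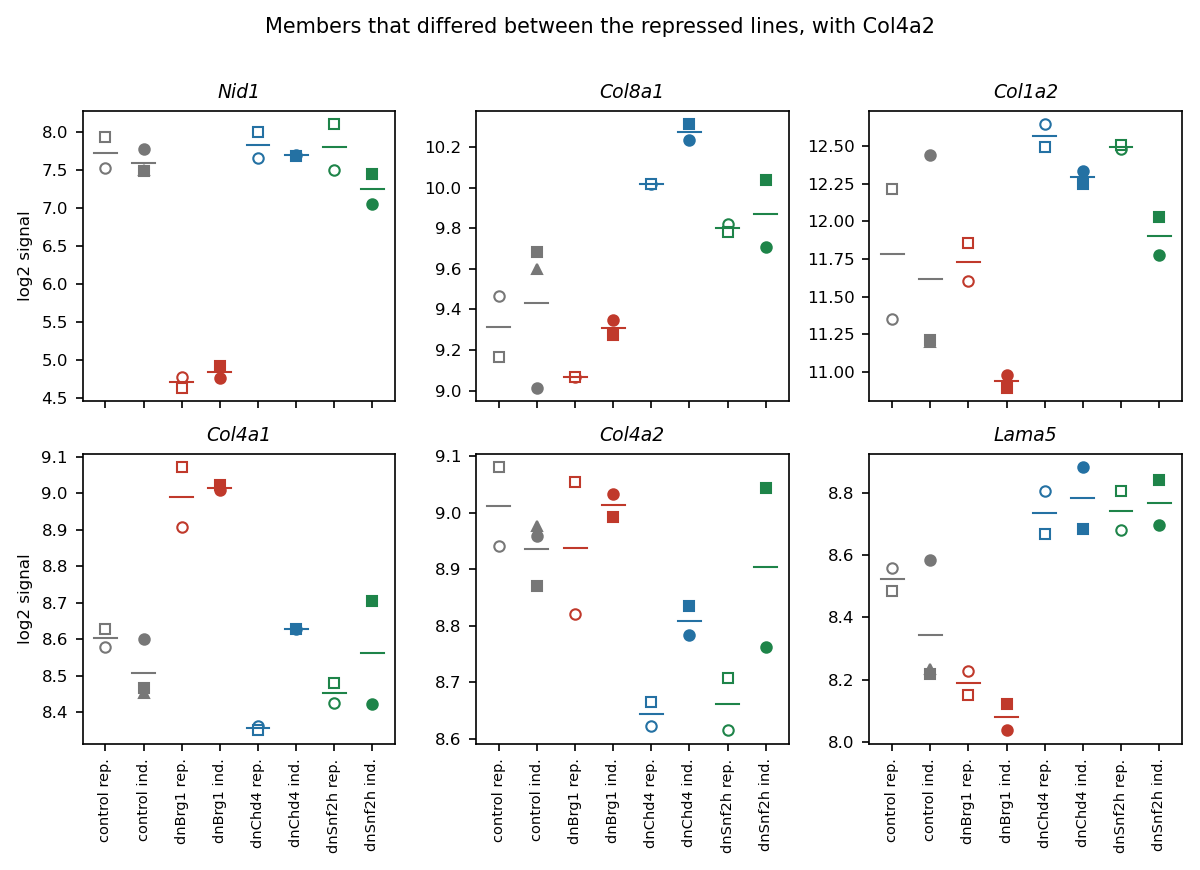
Log2 signal on each of the 17 arrays for 5 matrix genes that differed between the repressed dnBrg1 line and both other repressed lines, and for Col4a2, which did not pass. Nid1 lies between 4.64 and 4.92 on the 4 dnBrg1 arrays and between 7.05 and 8.10 on all others.

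The control line could not serve as the reference that the design calls for. Without that reference, what a variant did cannot be told apart from what the transactivator or the loss of tetracycline did. The first array labelled repressed was most like the second labelled induced (r = 0.995 across the 19938 genes), and the second labelled repressed was most like the first labelled induced (r = 0.994). In the matrix genes this is seen in Col5a2, which read 10.95 and 9.60 on the arrays labelled control repressed and 9.72, 11.09 and 11.10 on those labelled control induced. Col1a2 read 11.35 and 12.21 against 12.44, 11.21 and 11.20. The difference between the 2 arrays labelled repressed correlated with the averaged dominant-negative induction across the 58 genes (r = 0.802), and that between the first 2 labelled induced correlated the other way (r = -0.817). Within the dominant-negative groups the same correlation lay between -0.198 and 0.219. These r run across genes, which are not independent, and carry no p. The difference was as large within the control labels as the induction in the dominant-negative lines: Col4a5 read 8.47 and 7.56 on the 2 repressed and 7.75, 8.52 and 8.53 on the 3 induced arrays.

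**Figure D5:**
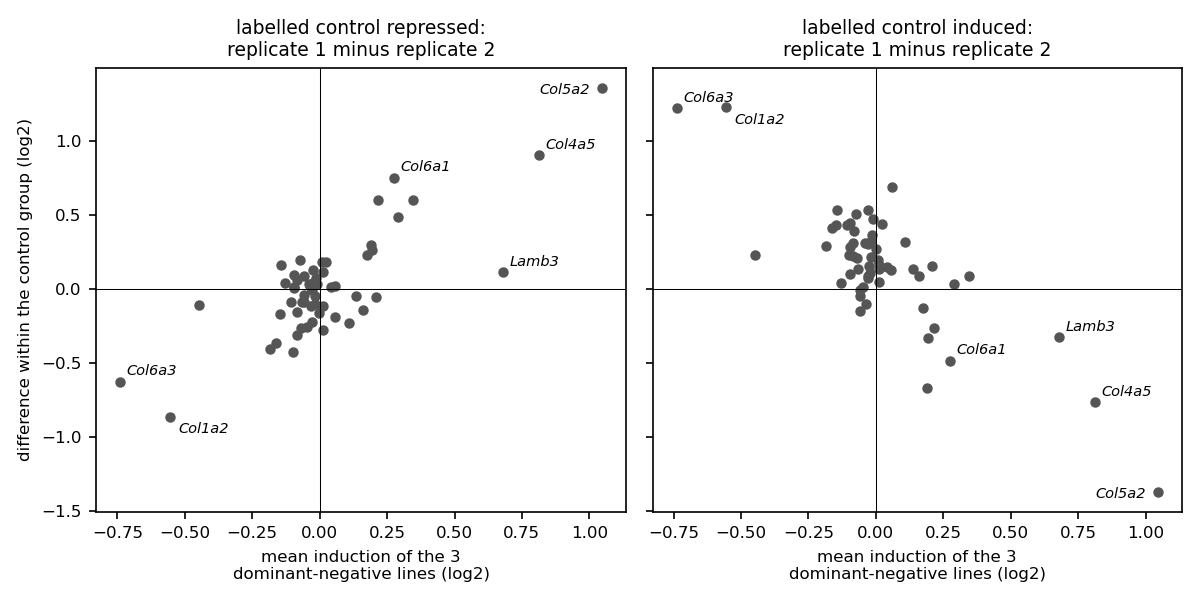
Difference between the first and second array of a control label (log2, y axis) against the induction averaged over the dominant-negative lines (log2, x axis), each point 1 of the 58 matrix genes. The points rise along the diagonal for the label repressed (r = 0.802) and fall for the label induced (r = -0.817).

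With the control arrays taken as labelled, limma called no matrix gene on control induction and none of all genes (0%). At an unadjusted p under 0.05 there were 2 of the 58 and 4.24% of all genes. Nor did any matrix gene differ between a dominant-negative and the control induction, where 0.0903%, 0.0401% and 0% of all genes did for dnBrg1, dnChd4 and dnSnf2h. At an unadjusted p under 0.05 these comparisons held 4, 6 and 1 matrix genes, beside 5.67%, 3.87% and 5.62% of all genes. With the second repressed and the first induced control array left out, a choice made on their values, the control repressed group is 1 array, assumed to vary like the other groups. Then 5, 6 and 3 matrix genes differed from the control induction, beside 5.88%, 9.38% and 9.05% of all genes, and the control induction itself called none, beside 0.0752%. The repressed array kept is the one most like the second induced array, which was kept too, so the choice itself draws the control induction towards 0, and these counts are not independent of those of the dominant-negative inductions. If all 17 arrays as labelled set the spread, the dominant-negative inductions keep 1 matrix gene in the dnBrg1 line (Col3a1, adjusted p 0.0193), 1 in the dnChd4 line (Lamb3, adjusted p 0.0258) and none in the dnSnf2h line, beside 0.341%, 0.0953% and 0.00502% of all genes. The averaged induction then keeps 6 (Agrn, Col3a1, Col4a5, Col5a2, Col6a3 and Lamb3), beside 8.14% of all genes. The repressed dnBrg1 line keeps the same 4 (Nid1, Col4a1, Col8a1 and Lama5) against the repressed dnChd4 and dnSnf2h lines, beside 4.03% and 3.89%. The differences between inductions keep none, beside 0.13% (dnBrg1 minus dnChd4), 0.0351% (dnBrg1 minus dnSnf2h) and 0.0401% (dnChd4 minus dnSnf2h), by limma at the same threshold.

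Genes that fold, modify and secrete collagen also moved in both directions. Of 24 measured on that list, 5 rose and 3 fell in the dnBrg1 line, 4 rose and 1 fell in the dnChd4 line and 3 rose and 3 fell in the dnSnf2h line, with medians of -0.02, 0.04 and 0.03. These are 33.3%, 20.8% and 25% of the list, beside the 14.2%, 18% and 17.5% of all genes called. Plod1, a lysyl hydroxylase that prepares collagen for crosslinking, rose in all 3 lines, by 0.74, 0.75 and 0.46 (adjusted p 7.22e-05, 4.15e-05 and 0.00193). Pcolce, which enhances removal of the procollagen C-propeptide, fell by 0.73 on the log2 scale in the dnBrg1 line (adjusted p 0.000179). Bmp1, the protease that removes that propeptide, rose by 0.73 in the dnChd4 line (adjusted p 0.000219). P4hb, a subunit of prolyl 4-hydroxylase, fell by 0.47 in the dnSnf2h line (adjusted p 0.00229).

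Receptors for collagen and laminin likewise moved both ways. Of 15 measured, 3 rose and 1 fell in the dnBrg1 line, 4 rose and 1 fell in the dnChd4 line and 3 rose and 2 fell in the dnSnf2h line, while the list medians were -0.09, -0.10 and 0.01. That is 26.7%, 33.3% and 33.3% of the list, beside 14.2%, 18% and 17.5% of all genes. Ddr1, a receptor tyrosine kinase activated by collagen, rose by 0.97, 1.31 and 1.03 in the dnBrg1, dnChd4 and dnSnf2h lines (adjusted p 2.34e-05, 9.62e-07 and 1.17e-05). Itga1, the alpha chain of a collagen-binding integrin, rose by 1.15, 1.20 and 1.01 (adjusted p 4.55e-05, 1.98e-05 and 9.55e-05). Itga3, on the same list, went the other way. It read 9.95 and 9.89 repressed and 9.34 and 9.28 induced in the dnBrg1 line. In the dnChd4 line it read 10.02 and 9.95 against 9.40 and 9.38, and in the dnSnf2h line 9.84 and 10.12 against 8.76 and 9.30. Of 19 other basement membrane genes 2, 3 and 3 were called (10.5%, 15.8% and 15.8%). Tinagl1, a matricellular protein of basement membranes, rose by 1.14, 0.62 and 0.51 (adjusted p 3.19e-06, 0.000268 and 0.00131). Egfl6 was called lower in the dnBrg1 line (adjusted p 0.0155), but its mean of 3.93 is under the 4.77 level and no size is given. Ecm1 rose by 1.06 in the dnChd4 line (adjusted p 3.29e-06) and Fbln2, a fibulin that binds nidogen and laminin, fell by 1.03 in the dnSnf2h line (adjusted p 0.000262). No gene of these 3 lists was called on control induction.

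Markers of cell types that make matrix moved too. Of 14 mesenchymal and fibroblast markers 6 fell in the dnBrg1 line, 2 in the dnChd4 line and 5 in the dnSnf2h line, and none rose. The falls are 42.9%, 14.3% and 35.7% of the list, beside 6.22%, 6.82% and 8.34% of all genes. S100a4 and Snai2, which are linked to the mesenchymal state, fell in all 3 lines, S100a4 by 1.68, 0.76 and 1.02 on the log2 scale (adjusted p 3.49e-07, 0.00017 and 1.94e-05) and Snai2 by 1.43, 1.19 and 1.30 (adjusted p 4.83e-05, 0.000133 and 8.12e-05). The summed signal of the list, on the log2 scale, ran from 13.40 to 13.50 repressed and 12.93 to 13.00 induced in the dnBrg1 line, from 13.52 to 13.61 and 13.32 to 13.33 in the dnChd4 line, and from 13.49 to 13.57 and 12.98 to 13.29 in the dnSnf2h line. Such a sum adds unlogged signals, so the genes with the highest signal weigh most, here and in the sums of other lists below. Vim alone read 12.80 and 12.71 on the repressed dnBrg1 arrays, so the sums of this list largely follow Vim. Dcn, Lum and Fap, fibroblast markers, were under the 4.77 level and add little to them. The falls of Col1a2, Col3a1 and Col6a3 run the same way as these shifts, though Col1a2 and Col3a1 were not called in the dnChd4 line. The rises of Col5a2 in all 3 lines, and of Col1a1, Col6a1 and Col6a2 in the dnChd4 line, run the other way. In at least 1 line 9 matrix genes rose and 6 fell. The shares of all genes that rose or that fell in at least 1 line were not counted. These 2 counts therefore have no comparison with genes at large. The part of the shifts in mesenchymal markers in the changes of the matrix genes was not tested. In bulk RNA, fewer cells of a type and less RNA per cell cannot be told apart.

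Myoepithelial and smooth muscle markers moved in both directions. Of 8, 1 fell in the dnBrg1 line, 3 rose and 1 fell in the dnChd4 line and 2 rose and 1 fell in the dnSnf2h line. These are 12.5%, 50% and 37.5% of the list, beside 14.2%, 18% and 17.5% of all genes called in the 3 lines. Acta2, smooth muscle actin, rose by 2.56 and 2.32 in the dnChd4 and dnSnf2h lines (adjusted p 6.09e-06 and 1.88e-05), Tagln rose by 2.53 in the dnChd4 line (adjusted p 3.71e-07), and Krt14, a basal keratin, fell by 1.29, 1.15 and 1.29 in the 3 lines. The summed signal of the list was 9.09 to 9.10 repressed and 8.65 to 8.66 induced in the dnBrg1 line, 9.70 to 9.72 and 9.98 to 10.43 in the dnChd4 line, and 9.74 to 9.85 and 9.65 to 10.02 in the dnSnf2h line. Of 12 epithelial markers, Krt7 alone was called, rising by 0.43 in the dnSnf2h line (adjusted p 0.021), which is 8.33% of the list there. The summed epithelial signal lay between 8.78 and 9.01 on the dominant-negative arrays. Of 6 endothelial markers none was called in an induction, and of 6 macrophage markers 1 was called in each line, or 16.7% of the list. Cd68 fell in the dnBrg1 and rose in the dnChd4 line, by changes of -0.48 and 1.03. Cd14 fell in the dnSnf2h line, with a change of -0.70. Ptprc, Adgre1, Csf1r and Itgam lay under the 4.77 level. The part of these marker shifts in the changes of Col5a2, Lamb3 and the other matrix genes was not tested.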

How the data were processed

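Each of 17 samples was read on 1 expression array, and its title gave its group. The deposited series table holds 1 log2 value per probe set and array (the scale is judged from its values, 2.02 to 14.86, with array medians between 5.48 and 5.63). The authors used Affymetrix Expression Console, per the submitters' processing notes. The sources used here name no version, summarization, normalization or genome build for it (not given in the sources used here). The values were not rescaled. No background or detection values were used, and the number of arrays limits the precision.

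Of 35557 probe sets, the platform annotation names 21789 with a single gene, 1621 with several and 12147 with none. Only the first were used, with the highest mean per gene kept for the 999 genes with more than 1. limma 3.58.1 in R 4.3.3 (lmFit, contrasts.fit, eBayes, 1 mean per group, Benjamini-Hochberg, threshold 0.05) gave every p. The 10 contrasts within the dominant-negative lines used 12 arrays (6 residual degrees of freedom), and the 4 with the control line used 17 (9). The fit of the dnBrg1 induction was tested on simulated data. It recovered 51 of 100 genes changed by 0.5 on the log2 scale and 97 of 100 changed by 1, with 3 false calls. No other gene was changed, and noise was drawn independently for each gene and array. In the data 14.2% of all genes were called in that induction, so recovery and false calls may differ there. A gene that was not called may thus still have changed. The matrix genes, gene lists, array sets and tests were chosen with earlier results of these data known. Matrix genes given on every array were, per induction, the 4 highest and 4 lowest called without overlap of arrays, per difference the 2 highest and 2 lowest called, and 12 fixed ones (Col1a1, Col1a2, Col3a1, Col4a1, Col4a2, Lama5, Lamb1, Lamc1, Nid1, Nid2, Hspg2 and Agrn), some of the last by change alone. From each list and line the 2 smallest adjusted p were named, and further names were chosen after their values were seen. Promoter windows came from RefSeq on GRCm38.p6. Other settings were 17, 15 or only the contrast's arrays, eBayes with trend and robust options, the replicate number as a block, quantile normalization, median centring, leaving out the dimmest 30% of genes, the mean of a gene's probe sets, and leaving out each array in turn.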

Additional observations from a re-analysis of the deposited data

Results flagged for a closer look

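Matrix genes whose response to induction differed between 2 dominant-negative lines, by a test of the difference itself in limma, were Col5a2 and Col6a1. For Col5a2 the dnBrg1 induction was smaller than the dnChd4 induction, with a difference of -0.96 on the log2 scale (95% interval -1.25 to -0.67, adjusted p 0.0015), and smaller than the dnSnf2h induction, with a difference of -0.65 (95% interval -0.94 to -0.36, adjusted p 0.0461). For Col6a1 the dnBrg1 minus dnChd4 difference was -0.96 (95% interval -1.33 to -0.60, adjusted p 0.00958). That gene changed by -0.15 in the dnBrg1 line and by 0.82 in the dnChd4 line. Of 21 other settings, 14 lost the Col5a2 difference from the dnSnf2h line and 6 lost the Col6a1 difference. The Col5a2 difference from the dnChd4 line was lost in 1. With all 17 arrays setting the spread, none of these differences passed. Both induced arrays of a line lay on 1 side of both repressed arrays for Col5a2 in all 3 lines, and for Col6a1 in the dnBrg1 and dnChd4 lines. That alone says little, since 53.4%, 60.1% and 46.4% of all genes had such a split in the dnBrg1, dnChd4 and dnSnf2h lines.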

How the results depend on the processing

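Limits come first from the control arrays, which widen the spread, from 2 arrays a group and from arrays without background values. The replicate numbers did not pair the arrays (correlations of same-numbered deviations 0.016, 0.135 and 0.313 in the dnBrg1, dnChd4 and dnSnf2h lines). With the replicate block the control-referred counts went from 18 to 0 genes for dnBrg1 and from 8 to 1 for dnChd4, the repressed dnChd4 minus dnSnf2h count from 3 to 7, and no other count moved by over 1.5 times. Of 242 counts under other settings, 202 stayed within 1.5 times. No called gene changed sign in any of them. Quantile normalization and median centring moved the median of all genes by at most 0.0693.

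With all 17 arrays setting the spread, the inductions called 1, 1 and 0 matrix genes (68, 19 and 1 of all genes, from 2839, 3590 and 3497) in the dnBrg1, dnChd4 and dnSnf2h lines, and their mean 6 (1622, from 6076). The dnBrg1 minus dnChd4, dnBrg1 minus dnSnf2h and dnChd4 minus dnSnf2h inductions then called 0, 0 and 0 matrix genes (26, 7 and 8 of all, from 254, 126 and 26), and the repressed differences 4 and 4 (804 and 775, from 2875 and 2857), with 0 of all genes for dnChd4 minus dnSnf2h, from 3. With 15 arrays the control induction called 15 genes, and the dnBrg1, dnChd4 and dnSnf2h inductions minus the control called 5, 6 and 3 matrix genes (1173, 1871 and 1804 of all). With only the lines of a contrast, the counts of all genes were 1446 for dnSnf2h, 445 for dnBrg1 minus dnChd4, 65 (and 0 matrix genes) for dnBrg1 minus dnSnf2h, 0 for repressed dnChd4 minus dnSnf2h, and 4 and 3 for dnBrg1 and dnChd4 minus the control. Median centring left 0 matrix genes for dnBrg1 minus dnSnf2h. It left 1 gene for repressed dnChd4 minus dnSnf2h, as did quantile normalization and the mean of probe sets. Without the dimmest 30% of genes, dnBrg1 minus control called 11. The causes of these shifts were not tested.

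Leaving out 1 array at a time, matrix gene counts ranged from 5 to 8 for dnBrg1, 6 to 12 for dnChd4, 5 to 8 for dnSnf2h and 10 to 14 for the mean, and all-gene counts from 1353 to 3423, 1926 to 4180, 2342 to 4204 and 5202 to 6649. For the differences dnBrg1 minus dnChd4, dnBrg1 minus dnSnf2h and dnChd4 minus dnSnf2h they ranged from 1 to 3, 0 to 2 and 0 to 0, and from 106 to 382, 46 to 265 and 15 to 175 of all genes. For the repressed lines in the same order they ranged from 6 to 8, 6 to 10 and 0 to 0, and from 1345 to 3508, 1784 to 3377 and 0 to 500. For the control induction and the 3 differences from it, matrix genes stayed at 0 and all genes ranged from 0 to 4, 12 to 60, 5 to 16 and 0 to 19. The dnBrg1 count of all genes was 1353 without the second induced dnBrg1 array, the dnChd4 count 1926 without the second repressed dnChd4 array, and the count of 500 for repressed dnChd4 minus dnSnf2h came without the first repressed dnSnf2h array.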
